A study of Mus musculus with 6 samples.

Results

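Ascorbate and glucose transporters carry vitamin C and hexoses across cell membranes. SLC23 proteins move reduced ascorbate together with sodium, whereas SLC2 (GLUT) proteins move glucose and, for several members, dehydroascorbate, the oxidised form. Human red cells use GLUT1 for both, adult mouse red cells are known to carry mainly Glut4, and mice also make ascorbate themselves. The genes described here were Slc23a1 and Slc23a2, which encode the ascorbate transporters SVCT1 and SVCT2, and the hexose transporter genes Slc2a1, Slc2a3, Slc2a4, Slc2a6, Slc2a8 and Slc2a9. They were picked by gene name, as every non-control probe that the array files assign to 1 of these 8 names. This gave 10 probes of 8 genes among 34761 gene names on the array. The group was chosen by someone who knew the results of the genotype comparison below, so the transporter values between the genotypes, including any call among them, are a description and support nothing.

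RNA came from CD71high Ter119+ bone marrow (BM) erythroblasts, an immature nucleated red cell stage, sorted from 3 P38α+/− and 3 P38α−/− C57Bl/6 mice. The controls were Mx1-Cre/P38α fl/+ and the deleted mice Mx1-Cre/P38α fl/fl, so both carried the Mx1-Cre transgene, whose interferon-driven promoter acts in blood cells and in other tissues. Both groups, male and female, received 3 injections of 300 µg PolyIC at 6 to 8 weeks of age and then 6 weeks of rest. Both then received 100 mg per kg of phenylhydrazine (PHZ), which lyses red cells, and cells were taken on day 4. RNA of every animal (10 ng) was amplified and hybridised to its own array in 1 colour, and the labels do not say which mice share a litter.

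A level here is a signal on the log2 scale from which the 75th percentile of its own array was subtracted, with the percentile taken from those 15150 probes that the scanner software marked as well above background on every array. The share of all probes well above background was 36.9% to 53.1% on the P38α+/− arrays and 28.9% to 35.9% on the others. Mapk14, the gene of P38α, gave no lower level under the P38α−/− label, and these arrays are called knockout-labelled from here on. The brighter of its probes averaged 0.51 ± 0.16 (SD, n = 3) in P38α+/− and 1.05 ± 0.25 in the knockout-labelled arrays, a log2 difference of 0.54 (0.45 to 1.03 over 16 alternatives, adjusted p = 0.185 by limma). The dimmer one differed by 0.01 (−0.31 to 0.49, adjusted p = 0.991). The sources used here do not say which sequence was deleted, so these probes may lie outside it and then check nothing. P38α protein is not measured by an array. By genomic PCR and immunoblotting the study reported the locus excised and the protein lost in sorted erythroblasts of such mice. Across all tested probes the median log2 difference was −0.16, and transporter changes are also given relative to it.

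The promoters of Slc2a6 and Slc2a8 are shown because both genes lie on chromosome 2 and read in opposite directions between the genotypes. Each is the 250 bases before the RefSeq start (GRCm38.p6, minus strand, 5′ to 3′). That of Slc2a6 is chr2:27027999-27028248 and that of Slc2a8 is chr2:32982084-32982333. Capitals mark matches on either strand. The CCAAT box was searched by those letters, the GC box as GGGCGG and the core of ETS factor sites as GGAAGT.
Slc2a6: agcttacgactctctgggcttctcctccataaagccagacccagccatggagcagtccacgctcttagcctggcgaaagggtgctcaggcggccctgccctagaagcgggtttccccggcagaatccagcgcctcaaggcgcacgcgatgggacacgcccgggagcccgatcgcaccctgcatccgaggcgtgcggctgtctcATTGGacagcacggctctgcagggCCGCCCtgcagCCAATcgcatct
Slc2a8: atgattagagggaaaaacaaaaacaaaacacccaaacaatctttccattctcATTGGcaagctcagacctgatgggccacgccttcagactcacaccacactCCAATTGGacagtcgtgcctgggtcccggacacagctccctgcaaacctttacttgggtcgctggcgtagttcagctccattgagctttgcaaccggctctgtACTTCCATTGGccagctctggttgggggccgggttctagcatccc
Slc2a6 held a GC box 23 bases before the start and CCAAT boxes at 47 and 12 bases, counted to the first base of the match. Slc2a8 held CCAAT boxes at 198, 148, 145 and 39 bases, of which those at 148 and 145 overlap, and an ETS core at 45 bases that abuts the last of them. Neither window held an E-box, searched as CACGTG. Nor did either hold the core of hypoxia sites, ACGTG, which is contained in the E-box. The erythroid GATA motif, searched as AGATAA, was missing too, as were the CACCC box (CCACCC) and the AP-1 motif (TGACTCA). Among 32851 promoter windows of this length, 33.8% held a CCAAT box, 32.7% a GC box, 28.1% a CACCC box, 19.7% an ETS core, 16.6% a hypoxia core, 9.99% a GATA motif, 6.02% an E-box and 4.46% an AP-1 motif. RefSeq windows were found for 5 of the 8 genes, and these matches are letters in a window and not binding sites.

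Of the 8 transporter genes, 5 were well above background on all 6 arrays by at least 1 probe, and these 5 were among the 14025 genes (18547 probes) in the fit. The call rule was a limma p, adjusted by Benjamini-Hochberg, no higher than 0.05, together with a 2-fold difference or more. Of all tested genes 29 were called, which is 0.207%, 23 of them higher (0.164%) and 6 lower (0.0428%) under the knockout label. Among the transporters 1 was called, Slc23a1, as higher. Of the 6 tested transporter probes 5 did not overlap between the genotypes, where 27.8% of all tested probes with a value on every array did not. Nothing is read from either count, since the comparison was known when the genes were chosen.

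**Figure D1:**
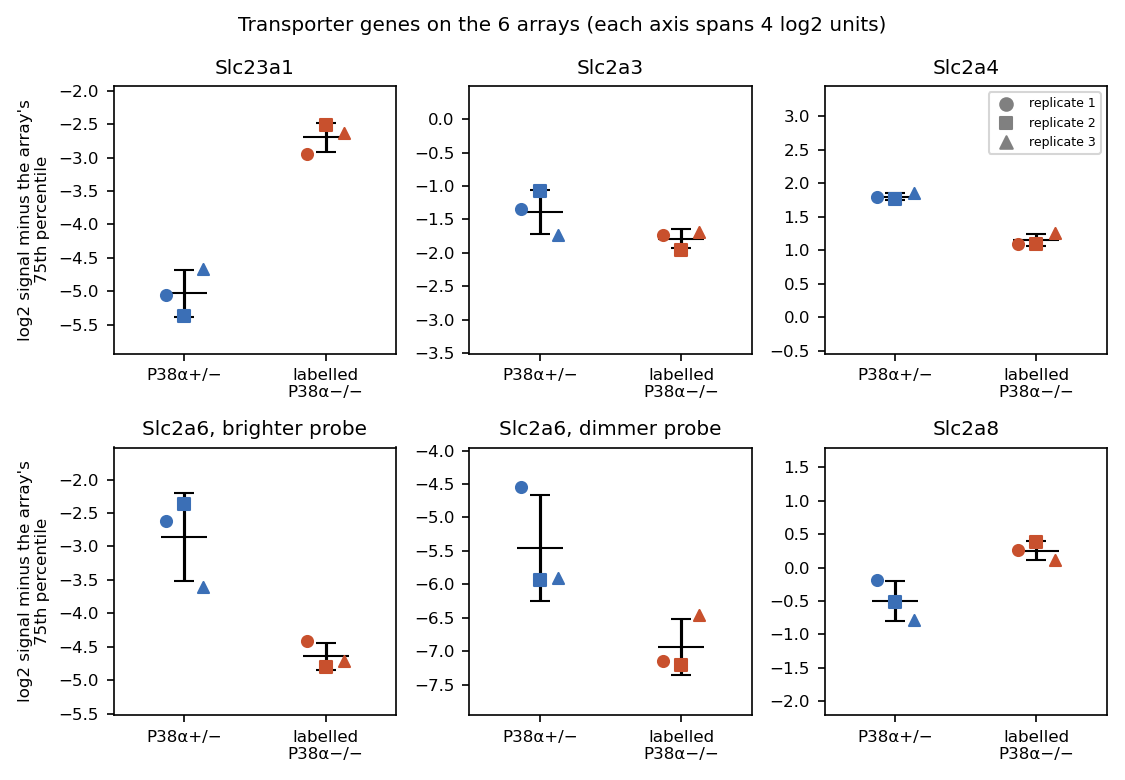
Log2 signal minus the array's 75th percentile (y axis) of the 6 tested transporter probes in the 3 P38α+/− and the 3 labelled P38α−/− arrays. Points are arrays, bars are mean ± SD, and the Slc2a3 points alone overlap between the genotypes.

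Slc23a1 encodes SVCT1, the ascorbate transporter best known from the absorbing cells of gut and kidney. Its single probe (mm9 chromosome 18, 35774840 to 35774899) read −5.06, −5.37 and −4.67 in P38α+/− and −2.94, −2.51 and −2.64 in the knockout-labelled arrays. All 3 knockout-labelled arrays lay above all 3 controls, with a gap of 1.73 between the nearest arrays. The means were −5.03 ± 0.35 and −2.70 ± 0.22 (SD, n = 3 each), a log2 difference of 2.34 (SE 0.23), or 5.05-fold, and 2.50 relative to the median probe. As the scanner gave it, the signal was 24.3, 31.4 and 58.3 in the controls and 96.3, 276 and 218 in the others. The control signals were dim. They stood only 0.73 to 1.86 log2 units over each array's detection floor, the lowest signal of any probe well above background there, against 2.53 to 4.16 in the knockout-labelled arrays.

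The fold of Slc23a1 depended on the processing. With the normexp background and an offset of 50 the log2 difference was 1.24, and with quantile normalization, a change of scaling, 2.99. The call was lost with the replicate number as a block (0 transporter genes called, against 1) and was kept when P38α+/− replicate 3 was left out. It was lost without P38α+/− replicate 1 or 2, or without P38α−/− replicate 1, 2 or 3, although the log2 difference then stayed between 2.17 and 2.46. The nearest tested gene on either side did not pass the call rule. Paip2, a translational regulator whose probe lies 1.7 kb away, had a log2 difference of 0.17 (SE 0.18, adjusted p = 0.645 by limma), and Matr3, which encodes a nuclear matrix protein 27.3 kb to the other side, had −0.50 (SE 0.23, adjusted p = 0.275). Over the 6 arrays the genes whose levels ran most like that of Slc23a1 were Mdh2, Klhl22 and Dusp16, with Pearson correlations of 0.997, 0.996 and 0.995. These genes were picked from all tested probes for their likeness, and the points share the 6 arrays and their 2 genotypes.

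Slc23a2 encodes SVCT2, the more widely expressed ascorbate transporter. Neither of its probes (chromosome 2, 131878512 to 131878571 and 131901145 to 131901204) was well above background on any array. The first stood at −2.27 to −2.22 log2 units from the floor on every array, which leaves its level below what these arrays resolve. No fold is given for it.

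Slc2a4 encodes GLUT4, the insulin-responsive transporter and the main one of adult mouse red cells. Its probe (chromosome 11, 69756073 to 69756132) read 1.80, 1.76 and 1.85 in P38α+/− and 1.09, 1.10 and 1.25 in the knockout-labelled arrays. The control arrays lay within 0.09 of each other and all above the others. The log2 difference was −0.65 (SE 0.14), a 1.57-fold lower level, and −0.49 relative to the median probe, and it did not pass the call rule. The probe was printed 10 times on each array, and 7 to 10 of these spots were kept. Spots of 1 array differed by an SD of only 0.02 to 0.07 on the log2 scale, which is spot noise within an array and not the spread between mice. The difference moved with the scaling, to −0.17 with the percentile over all probes and −0.29 with the spike-in. Relative to the median probe it was −0.5 under both of these scalings. The fitted difference was below 0 in all 16 alternatives, but not all of these could move it. No filter, the stricter filter and the replicate block return the reported difference by construction. The slide block repeats the fit without P38α−/− replicate 3.

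Slc2a1 encodes GLUT1, the transporter of human red cells and of dividing cells in general. Its probe (chromosome 4, 118809864 to 118809923) passed background clearly on 2 of 3 control arrays and 1 of 3 knockout-labelled arrays, and so was not tested. It read −4.57, −5.91 and −6.44 in the controls and −6.49, −6.31 and −5.85 in the others, with overlap between the genotypes. P38α+/− replicate 1 stood above the other 5 arrays. That array also had the largest share of probes well above background, 53.1%. The tested genes most like Slc2a1 over the 6 arrays were 1700027J07Rik, Ddx19a and Prpmp5, with Pearson correlations of 0.993, 0.991 and 0.989. They too were picked from all tested probes for their likeness. The Slc2a1 signal behind it was near the floor, at 0.09 to 1.22 log2 units from it in the controls and −1.02 to 0.68 in the others.

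Slc2a3 encodes GLUT3, a high-affinity glucose transporter of neurons and white blood cells. Its probe (chromosome 6, 122678075 to 122678134) read −1.35, −1.08 and −1.74 in P38α+/− and −1.74, −1.95 and −1.69 in the knockout-labelled arrays. The genotypes overlapped, with P38α+/− replicate 3 among the knockout-labelled arrays. The log2 difference was −0.40 (SE 0.21) and −0.24 relative to the median probe. Its sign turned to 0.08 with the percentile over all probes, while relative to the median probe it was −0.25 there.

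Slc2a6 encodes GLUT6, a transporter held inside the cell in lysosomes. Its brighter probe (chromosome 2, 26876891 to 26876950) read −2.62, −2.36 and −3.61 in P38α+/− and −4.42, −4.80 and −4.71 in the knockout-labelled arrays. All controls lay above the others, by at least 0.81. The log2 difference was −1.78 (SE 0.34), a 3.43-fold lower level, and −1.62 relative to the median probe. It did not pass the call rule, but did so with the percentile over all probes, with array weights and without P38α+/− replicate 3. The dimmer probe (26878631 to 26878690) was well above background on all 3 controls and on none of the others. It read −4.55, −5.93 and −5.91 against −7.15, −7.21 and −6.46, and was at least 1.67-fold lower, setting the control mean against each other array's floor or its own signal where that was higher. The alternatives put the brighter probe at −2.15 to −1.0. For the dimmer probe the bound is given for the reported processing only. Its fitted difference was −0.25 with normexp, −0.65 with quantile normalization and −0.63 in the authors' table, all smaller falls than the bound.

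Slc2a8 encodes GLUT8, an intracellular transporter of the same subfamily. Its probe (chromosome 2, 32828509 to 32828568) read −0.19, −0.51 and −0.79 in P38α+/− and 0.26, 0.38 and 0.11 in the knockout-labelled arrays. The arrays did not overlap, by a gap of 0.29. The log2 difference was 0.74 (SE 0.20), a 1.67-fold higher level, and 0.90 relative to the median probe. It was above 0 in all 16 alternatives, from 0.60 to 1.23, though some of them repeat the reported difference by construction. It passed the call rule only with the percentile over all probes. In signals as the scanner gave them, P38α−/− replicate 1 read 886, inside the range of the controls (710 to 912), while the other two read 2040 and 1460.

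Slc2a9 encodes GLUT9, which carries urate. Its probe (chromosome 5, 38740566 to 38740625) was near background on every array and stood at −2.04 to −1.86 log2 units from the floor.

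**Figure D2:**
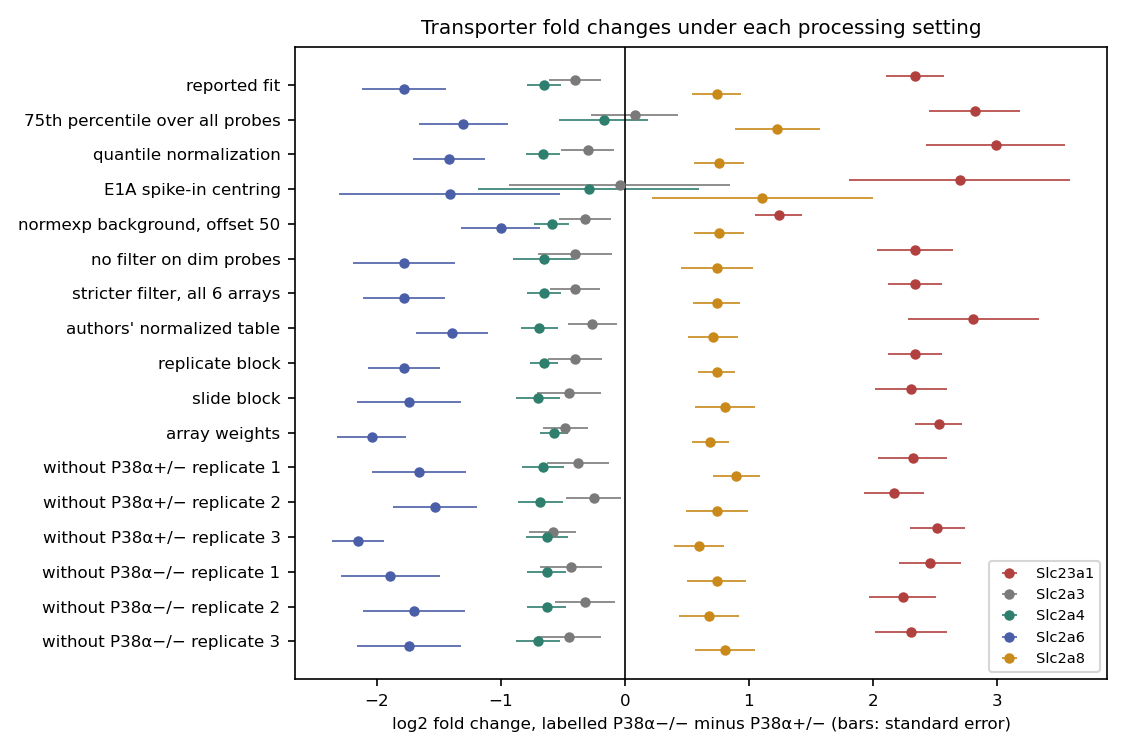
Log2 difference, labelled P38α−/− minus P38α+/− (x axis, bars are standard errors), of the 5 tested transporter genes by their brightest probe under the reported fit and 16 alternatives. Slc2a3 crosses 0, and the other 4 genes keep their side. The filter settings and the replicate block repeat the reported difference by construction, and the slide block repeats the fit without P38α−/− replicate 3.

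Marker genes of other cells also read differently between the genotypes. The 13 neutrophil markers, all well above background on all 6 arrays, were all lower in the knockout-labelled arrays, with a median log2 difference of −1.32. None was called, and 12 of 13 had an unadjusted p under 0.05 by limma, as had 2805 of all 14025 tested genes. The log2 of their summed signals was 6.80 to 8.17 in P38α+/− and 5.90 to 6.39 in the knockout-labelled arrays. S100a9, which encodes a granulocyte calcium-binding protein, had a log2 difference of −1.14 (SE 0.32), S100a8, its partner, −1.24, and the antimicrobial peptide gene Camp −1.65. White blood cells express Slc2a3, neutrophils are not among the cells that a CD71high Ter119+ gate is meant to keep, and the part of these markers in the Slc2a3 and Slc2a6 values was not tested. In such bulk samples, fewer cells of a type and less RNA per cell cannot be told apart.

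The other lists had fewer tested markers. Of 8 B cell markers, 3 were tested, and the log2 of their summed signals was −3.23 to −0.21 in P38α+/− against −4.93 to −2.93. Ms4a1 and Ebf1 passed the filter through the controls alone, and being well above background on no knockout-labelled array they have only bounds, at least 2.94-fold and at least 3.48-fold lower. Cd79b had a log2 difference of −2.42 (SE 1.05, adjusted p = 0.253 by limma), and the median of the 3 with the bounds in place was −1.80. All 6 tested monocyte or macrophage markers were lower (median −0.70; −0.61 to 0.63 against −1.24 to −0.26), with Siglec1 detected on none. Of these, Adgre1 and C1qa passed the filter through the controls alone, which favours a lower reading. The 3 tested T or NK cell markers were lower (median −0.32; −1.72 to −1.09 against −1.89 to −1.63), with Cd8a detected on none. Of these, Cd3e and Cd4 overlapped between the genotypes, at −0.16 and −0.01 relative to the median probe. Gzma did not overlap, but passed through the controls alone. Of 5 tested megakaryocyte or platelet markers 4 were higher (median 0.33; 1.11 to 1.58 against 1.36 to 1.79), with Ppbp detected on none. Gp1ba, among those higher, passed through the knockout-labelled arrays alone. Erythroid markers, which define the labelled cells, were present. All 9 tested late erythroid markers and 6 of 7 early ones were well above background on all 6 arrays. The summed late signals overlapped between genotypes (9.83 to 10.55 against 9.82 to 10.57), as did the early ones (5.13 to 5.53 against 5.27 to 5.54). The mean over the early markers, in which each gene counts alike, did not overlap, at 0.32 to 0.39 in P38α+/− and −0.15 to 0.23 in the knockout-labelled arrays. Kit is part of this mean and passed the filter through the controls alone, where it is higher. The separation is therefore not read as a shift of the early markers. Kit, the stem cell factor receptor gene, had a log2 difference of −1.62 (SE 0.51, adjusted p = 0.160 by limma). It was well above background on 3 control arrays and 2 others. Myb, a factor of early progenitors, had −1.08 (adjusted p = 0.266 by limma). No marker of any list was called.

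**Figure D3:**
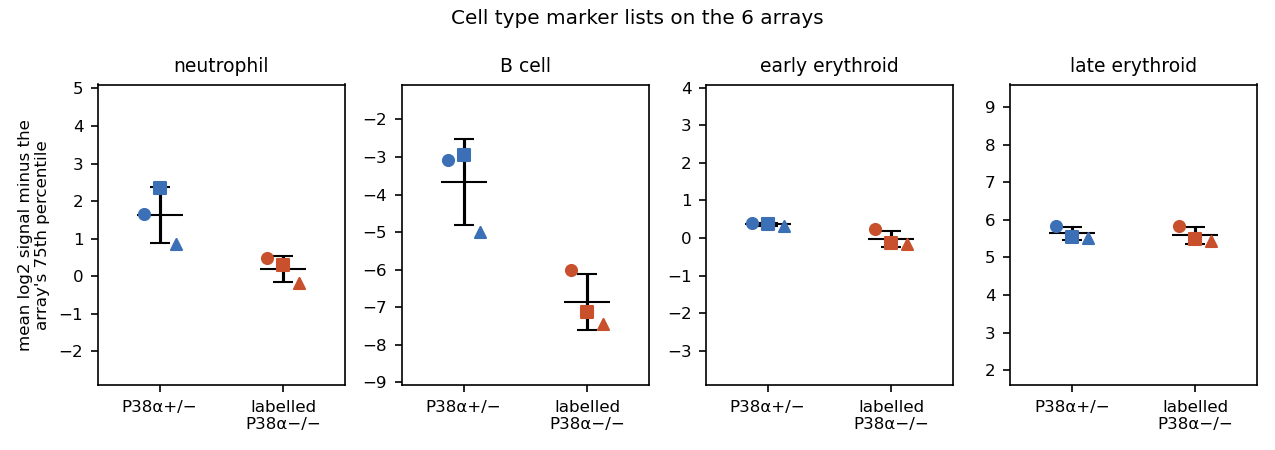
Mean log2 signal minus the array's 75th percentile (y axis, each spanning 8 log2 units) over the tested markers of 4 cell types on each array, with bars for mean ± SD (n = 3). Neutrophil means lie lower in all 3 knockout-labelled arrays, and late erythroid means overlap. B cell means also lie lower there, but Ms4a1 and Ebf1 passed the filter through the controls alone and Cd79b overlaps. The early erythroid mean holds Kit, which passed through the controls alone too.

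The genes around these transporters were read from lists of 103 genes, of which 65 were tested. By limma 0 of the 65 passed the call rule, and the methods' unpaired equal-variance test also called 0. At an unadjusted p under 0.05 there were 11 of 65 by the brightest probe (16.9%, beside 2805 of all 14025 tested genes) and 13 by any probe (beside 23.9% of all tested genes). The methods' test gave 13 by any probe. With the replicate number as a block 2 passed, Glrx as higher and Xdh as lower, and both also passed with the percentile over all probes and with array weights. The median log2 difference of the 65 was −0.04, beside −0.14 over all tested genes.

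Most other transporter genes gave no signal that could be tested. Of the 8 other SLC2 and SLC23 genes only Slc2a12 and Slc23a3 were tested. Slc23a3, an orphan relative of the ascorbate transporters, had a log2 difference of −0.50 (SE 0.19, adjusted p = 0.214 by limma), and Slc2a12 (GLUT12) −0.24 (adjusted p = 0.674). Slc2a2, Slc2a13 and Slc23a4 were well above background on none of the arrays. Among the 7 sodium-glucose transporters 2 were tested, Slc5a10 at −0.99 (adjusted p = 0.475, well above background on 3 control arrays and 1 other) and Slc5a2 at −0.23 (adjusted p = 0.721).

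Hexokinases trap glucose inside the cell. Of 6 tested hexose phosphorylation genes 4 were lower and 2 higher, with a median of −0.78 in which each gene counts alike. The 2 higher were Khk at 0.77 (adjusted p = 0.149 by limma) and Hk1, the brightest of the list, at 0.44 (adjusted p = 0.282). The log2 of the summed signals was 3.94 to 4.21 in P38α+/− and 4.19 to 4.43 in the knockout-labelled arrays. Hk3, the hexokinase of myeloid cells, had a log2 difference of −1.88 (SE 0.31, adjusted p = 0.0867 by limma), from 5 arrays, since its spot on 1 P38α+/− array was an outlier. Adpgk, an ADP-dependent glucokinase, had −1.16 (adjusted p = 0.138).

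Ascorbate is made through a liver pathway whose last enzyme, Gulo, was well above background on none of the arrays, as was Rgn. The other 3 synthesis genes were tested, with Ugp2, which makes UDP-glucose, at −0.56 (adjusted p = 0.302 by limma) and the aldehyde reductase gene Akr1a1 at 0.27 (adjusted p = 0.365). Of 10 tested recycling genes 6 were higher and 4 lower (median 0.14). Glrx encodes glutaredoxin, which can reduce dehydroascorbate, and averaged −2.28 ± 0.59 (SD, n = 3) in the controls and −0.18 ± 0.42 in the knockout-labelled arrays. Its log2 difference of 2.10 (SE 0.36) had the smallest adjusted p of the 65 genes (0.0762 by limma), and no control array reached a knockout-labelled one. Cyb561, an ascorbate-dependent electron carrier of membranes, had 0.76 (adjusted p = 0.428 by limma) and was well above background on 2 control arrays and 3 others.

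Dioxygenases that use ascorbate as a cofactor had a median of −0.16 over 12 tested genes. Tet2, which oxidises methylcytosine, had a log2 difference of −2.21 (SE 0.61, adjusted p = 0.143 by limma) and was well above background on 3 control arrays and 1 other. The collagen prolyl hydroxylase gene P4ha3, detected on as many arrays of each kind, had −0.75 (adjusted p = 0.470). Fitted differences of such genes rest on signals near background. Of 16 tested genes for transporter traffic and partners 10 were higher and 6 lower, with a median of 0.03. Tbc1d1, a regulator of GLUT4 vesicles, had −1.01 (adjusted p = 0.242), and the vesicle protein gene Vamp2 had 0.40 (adjusted p = 0.451).

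Regulators of the transporter genes had a median of −0.13 over 10 tested genes. Mef2d, a partner in GLUT4 gene control, had 0.51 (adjusted p = 0.200 by limma), and Creb1, a cAMP-responsive factor, −0.51 (adjusted p = 0.335). Of 4 tested urate genes, Xdh, which makes urate, had −1.74 (SE 0.33, adjusted p = 0.0867) and was well above background on 3 control arrays and 1 other, and the exporter gene Abcc4 had 0.63 (adjusted p = 0.194).

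**Figure D4:**
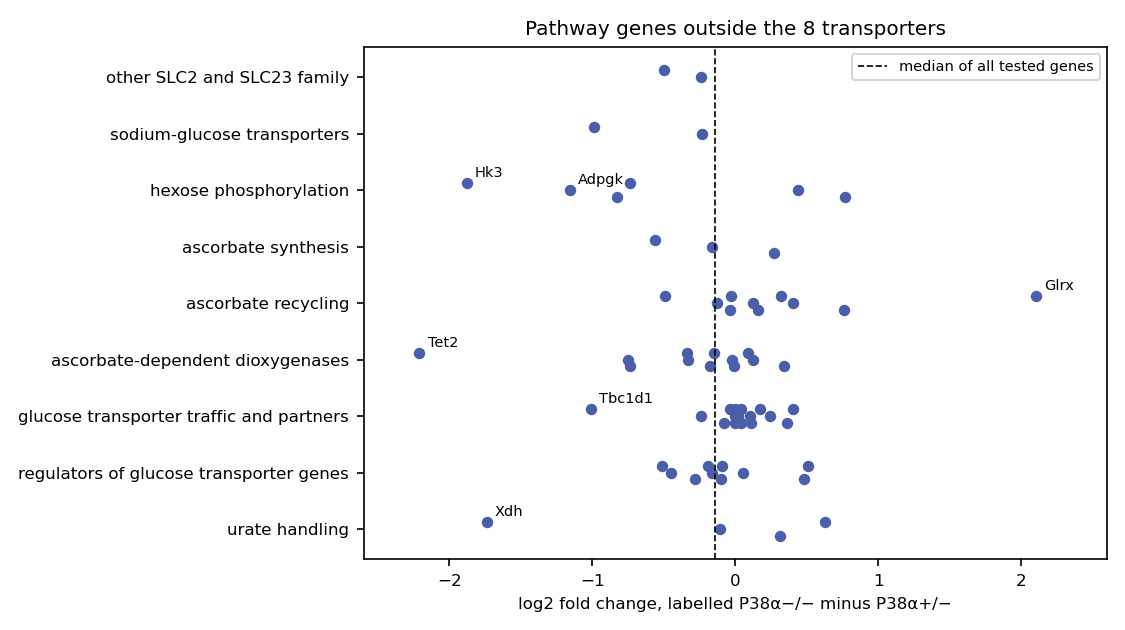
Log2 difference, labelled P38α−/− minus P38α+/− (x axis), of each tested gene in 9 pathway lists by its brightest tested probe, with the dashed line at the median of all tested genes. Genes past 1 log2 unit either way are named, and no point passed the call rule.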

How the data were processed

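The transporter genes and all lists were chosen with earlier results of these data known. The authors deposited the intensity of every spot as written by Agilent Feature Extraction 10.7.3.1, with the background removed within each array, and a table of normalized intensity values whose steps were not named. The study's methods give 3 mice of each genotype, and so 1 mouse to each array, and 0 columns were left unassigned. Positions are mm9.

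Control spots and outlier spots (121 to 1316 an array) were dropped and the spots of 1 probe averaged after taking log2. The value subtracted from each array was the 75th percentile of 15150 probes, namely those that no array had near background. No spot was saturated. Of 55681 probes 27503 were named through their accession, 3554 by symbol, 404 through an older name, and 24220 stayed under the array's own name. A probe was tested if well above background on all 3 arrays of a genotype. limma 3.58.1 in R 4.3.3 (lmFit and eBayes, two-sided) was fitted to all 6 arrays and checked on simulated data. The simulated data held large planted changes and independent noise, so that check does not cover smaller changes or arrays that vary together. A gene is represented by its brightest tested probe.

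Same-numbered arrays deviated together (correlations of 0.537, 0.310 and 0.423 of deviations from the genotype mean), while the other pairs ran from −0.476 to 0.184. The labels do not say that the numbers pair the arrays, and correlations from so few arrays cannot settle it. The fit without the block was kept as the reported one because the methods' test is unpaired. P38α−/− replicate 3 was alone on its slide. Nothing in the labels says the arrays of 1 genotype come from separate litters or days, so p-values measure the spread between these arrays, whose number limits the precision. Named outside the transporters were Mapk14, the 2 largest changes a pathway list, the 3 closest profiles, the nearest tested neighbours of Slc23a1 and the brightest markers. Hk1 and Khk were named as the higher genes of their list. The CCAAT motif was added after the promoters had been read. The alternatives are given with their effects in the closing section. No probe was named Hbb-b1, Hprt1, Ly6c2 or Trbc1.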

Additional observations from a re-analysis of the deposited data

How the results depend on the processing

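Called genes numbered 29 and called transporters 1, with 0 of the pathway genes. With the percentile over all probes they numbered 778, 3 and 5 (419 higher and 359 lower of the 778, and the median probe moved from −0.16 to 0.32), and with array weights 1647, 2 and 9 (240 higher and 1407 lower). The replicate block gave 67, 0 and 2, with 18 higher and 49 lower of the 67. Only the count of all genes moved with the stricter filter, to 62 with 1 transporter. No transporter and no pathway gene was called with quantile normalization (12 genes in all), the spike-in (5), normexp (17), no filter (0), the authors' table (11), the slide block (0) or the methods' unpaired equal-variance test (2). Leaving out 1 array at a time gave 0 to 100 genes, 0 to 2 transporters and 0 pathway genes, with the upper ends without P38α+/− replicate 3, and 0 genes without P38α+/− replicate 2 or any 1 of the P38α−/− replicates. One column of the authors' table, for P38α−/− replicate 2, followed its own scanner file less closely (Spearman 0.898) than did the other 5. No transporter reversed after a call. The percentile over all probes and the spike-in move every probe of an array alike, and the cause of each other shift was not tested. Dim probes limit Slc23a1 in the controls and leave Slc23a2, Slc2a1 and Slc2a9 without a measured difference.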
